A study of Mus musculus with 8 samples.

Results

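The SIX-EYA-DACH genes encode 3 families of nuclear proteins that work together as a transcriptional network. Here 9 of them were followed: Six2, Six4 and Six5, Eya1, Eya2, Eya3 and Eya4, and Dach1 and Dach2. They were taken by gene symbol from the 38355 genes counted in each library, and each matched 1 Ensembl mouse gene. All 9 passed the filter on low counts and were among the 16068 genes tested. Other SIX-family genes are not analysed here.

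RNA sequencing had been done on thoracic dorsal root ganglia, which hold the cell bodies of somatosensory neurons, dissected together with the adjoining spinal cord. The embryos were of the C57Bl6 strain at E11.5. A wild-type group (WT, 4 libraries) was compared with a Prdm12-/- group (KO, 4 libraries), which addresses the genes that depend on Prdm12, a PRDM-family zinc-finger transcription factor, in somatosensory neurons. All 8 listed libraries entered, although the design text speaks of triplicates. The labels do not describe the deleted allele or state if each library is 1 embryo or a pool. P-values thus measure the spread between these libraries, and part of it may be technical. A sex score, used later as a covariate, differed within each group. It was −12.2 and −12.8 in WT replicates 1 and 4, and 5.9 and 5.0 in WT replicates 2 and 3. In KO it was −12.6 and −12.4 in replicates 3 and 4, and 5.4 and 6.1 in replicates 1 and 2. The libraries of a group are therefore not all repeats of 1 sample. If libraries with like scores share an embryo was not tested.

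SIX-family proteins bind DNA through a homeodomain and a conserved domain next to it. EYA proteins do not bind DNA themselves: they join SIX-family proteins as co-activators, and their conserved carboxy-terminal domain is also a protein phosphatase. DACH proteins carry a domain related to that of the SKI co-repressors and act in the same complexes, often as repressors. The network is known from eye, ear, kidney, skeletal muscle and sensory ganglia, so a dissection holding ganglia, spinal cord and surrounding tissue can contain it in more than 1 cell type.

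The 4 EYA genes are paralogues, so their reads could be confused, and the stretch where their coding sequences are most alike is shown for that reason. The following 90 bases are the gap-free window with the most bases shared by all 4 genes (61 of 90), read from the GENCODE M21 transcripts of GRCm38, the assembly of mm10. Capitals mark positions where the 4 genes are not all alike, and in each gene the window crosses the junction of 2 exons.
Eya1: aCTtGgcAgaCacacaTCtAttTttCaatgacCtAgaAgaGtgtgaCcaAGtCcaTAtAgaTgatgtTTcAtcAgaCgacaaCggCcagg
Eya2: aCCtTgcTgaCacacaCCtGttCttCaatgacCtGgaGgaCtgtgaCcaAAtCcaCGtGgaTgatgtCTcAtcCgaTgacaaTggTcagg
Eya3: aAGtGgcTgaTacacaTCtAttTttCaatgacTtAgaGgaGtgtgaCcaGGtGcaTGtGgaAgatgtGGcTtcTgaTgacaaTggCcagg
Eya4: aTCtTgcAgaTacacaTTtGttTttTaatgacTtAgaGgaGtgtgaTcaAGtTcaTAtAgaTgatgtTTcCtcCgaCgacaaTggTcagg

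The Eya2 window (coding bases 923 to 1012, plus strand) spans the junction of exons 10 and 11, over chr2:165754493-165761955 of mm10. Even in this window Eya2 differed from Eya1 at 18 bases, from Eya4 at 19 and from Eya3 at 20. Over whole coding sequences, identity ranged from 53.0% to 69.9% in the 10 pairs of members within a family. The longest identical run between any annotated transcripts of such a pair was 32 bases (Six2 with Six4). For Eya2 it was 29 bases, shared with Eya3 and printed here because it is where a short read of Eya2 could be misplaced: GGTGTGGACTGGATGAGGAAACTGGCCTT. Read length and the counting of reads that fit several genes are not known from the sources used here. No exon of a member overlapped an exon of another annotated gene.

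Eya2 (ENSMUSG00000017897, mm10 chromosome 2, 165595032 to 165771727, plus strand) was the member that changed. Levels are in CPM, the reads of a gene scaled to the total reads of its library, and per-library values are listed from replicate 1 to replicate 4. The WT libraries held 40.1, 46.5, 45.1 and 42.5 CPM of Eya2, the KO libraries 36.3, 32.2, 32.7 and 31.8 CPM. Every KO library lay below every WT library. The WT mean was 43.5 ± 2.85 CPM and the KO mean 33.3 ± 2.06 CPM (SD, n = 4 per group), and the values rested on 728 to 2697 reads per library. Eya2 fell by 0.39 on the log2 scale (SE 0.06, edgeR quasi-likelihood adjusted p = 0.0303), a change of −23.5% with a 95% interval from −30.5% to −15.7%. In bulk tissue, fewer cells of a type and less RNA per cell cannot be told apart.

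Eya2 was thus 1 of 9 members called at an adjusted p under 0.05, all 9 tested, while 0.299% of the 16068 genes were called (0.243% lower and 0.056% higher in KO), and its rank by p was 37. The estimate of its change stayed in every fit between −0.43 and −0.35, but the call was lost in 8 of 18 alternatives. Leaving out WT replicate 2, 3 or 4 gave an adjusted p of 0.0998, 0.125 and 0.102, and leaving out KO replicate 2, 3 or 4 gave 0.1, 0.14 and 0.141. It remained without WT replicate 1 (0.00679) and without KO replicate 1 (0.0341), the libraries nearest the other group.

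**Figure D1:**
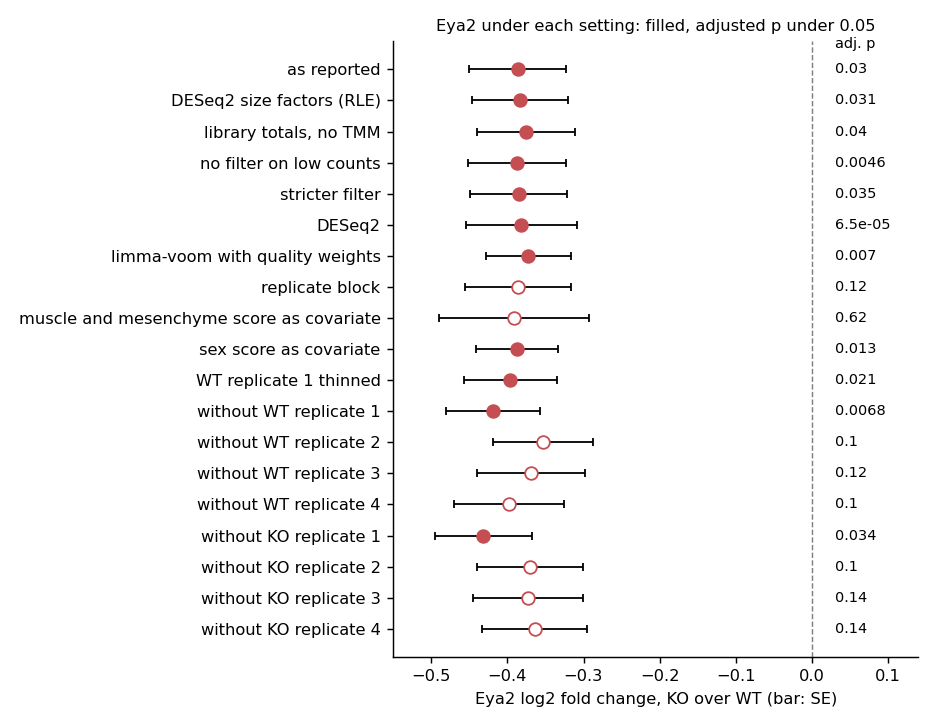
Log2 fold change of Eya2, KO over WT (point, bar: SE), under the reported fit and 18 other settings, with the adjusted p at the right; filled points have an adjusted p under 0.05. All points lie between −0.43 and −0.35, and 10 of the 18 other settings kept the call.

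Eya4 was higher in KO without passing the test. Eya4 (chromosome 10, 23102963 to 23350786, minus strand) measured 28.05, 27.7, 25.3 and 27.0 CPM in the WT libraries, against 33.3, 30.7, 29.1 and 28.9 CPM among the KO libraries. All 4 KO libraries lay above all 4 WT libraries, the closest being KO replicate 4 and WT replicate 1. The log2 fold change of Eya4 came to 0.18 (SE 0.06, unadjusted p = 0.0169, adjusted p = 0.63), with a 95% interval from 0.04 to 0.31. Eya2 and Eya4 were the 2 of 9 members whose groups did not overlap, where 4.14% of all tested genes had groups that did not overlap (2.45% with KO below WT, 1.69% with KO above WT). They were also the 2 of 9 with an unadjusted p under 0.05, against 6.35% of all tested genes (3.32% lower and 3.03% higher in KO).

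Eya1 (chromosome 1, 14168954 to 14310235, minus strand), like Eya4 an EYA co-activator with known roles in ear, kidney and muscle, measured 25.3, 22.5, 19.8 and 20.7 CPM in the WT libraries, against 25.9, 23.2, 24.5 and 24.0 CPM among the KO libraries. WT replicate 1 reached into the KO range and the other 3 WT libraries lay below it. The log2 fold change of Eya1 came to 0.14 (SE 0.08, adjusted p = 0.849), and 0.23 (adjusted p = 0.283) without WT replicate 1.

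Eya3 (chromosome 4, 132638987 to 132724765, plus strand), the EYA gene with the highest level here, differed least. It measured 117.1, 118.5, 114.5 and 115.8 CPM in the WT libraries, against 114.0, 108.0, 121.4 and 123.4 CPM among the KO libraries. The KO libraries fell on both sides of the narrow WT range. The log2 fold change of Eya3 came to 0.002 (SE 0.05, adjusted p = 0.999), with a 95% interval from −0.10 to 0.10, or −6.7% to 7.5%.

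**Figure D2:**
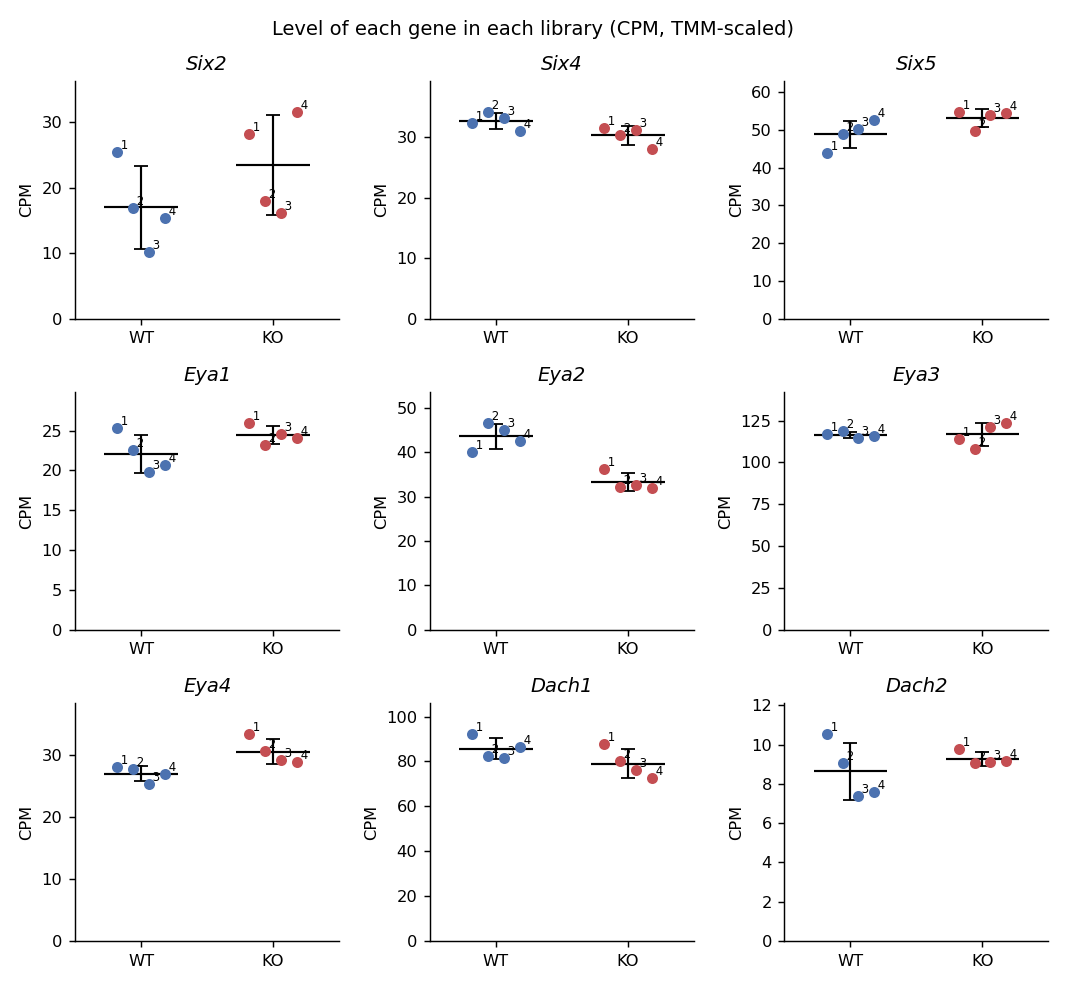
CPM of each of the 9 genes in the 4 WT (blue) and 4 KO (red) libraries, numbered by replicate; the horizontal line is the group mean and the bar its SD, and each axis starts at 0. The groups are apart in Eya2, with KO below WT, and in Eya4, with KO above WT, and overlap in the other 7.

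The make-up of the EYA family can be read from the same values. To compare genes, CPM was divided by the length of all annotated exons of the gene, giving CPM per kb. On that scale Eya3 made up 50.3% ± 0.86 of the summed EYA level in WT and 54.0% ± 2.33 in KO (SD, n = 4 each). Eya2 made up 35.8% ± 1.78 in WT and 29.3% ± 1.55 in KO, while Eya1 and Eya4 made up 6.89% and 6.99% in WT and 8.18% and 8.48% in KO. Shares of 1 sum move together, so these values carry no test. Per length, Eya4 stood at 2.87 ± 0.129 CPM per kb in the WT group and 3.24 ± 0.217 in the KO group, Eya1 at 2.83 ± 0.312 and 3.13 ± 0.146. The summed EYA level was 41.0 ± 1.02 CPM per kb in WT and 38.3 ± 1.38 CPM per kb in KO. On this scale all KO libraries lay below all WT libraries, as in 2.45% of single genes tested. That share is of single genes, whereas this sum includes Eya2, itself called lower. Summed as CPM without division by length, the EYA levels of the WT and KO libraries overlapped. Division by length gives each read of Eya2 the most weight, since its exons are the shortest of the family (2963 bases, against 5647 to 9419). Per length Eya3 was level (20.6 and 20.7) and Eya1 and Eya4 were higher in KO, so the lower sum reflects Eya2 and not the whole family.

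**Figure D3:**
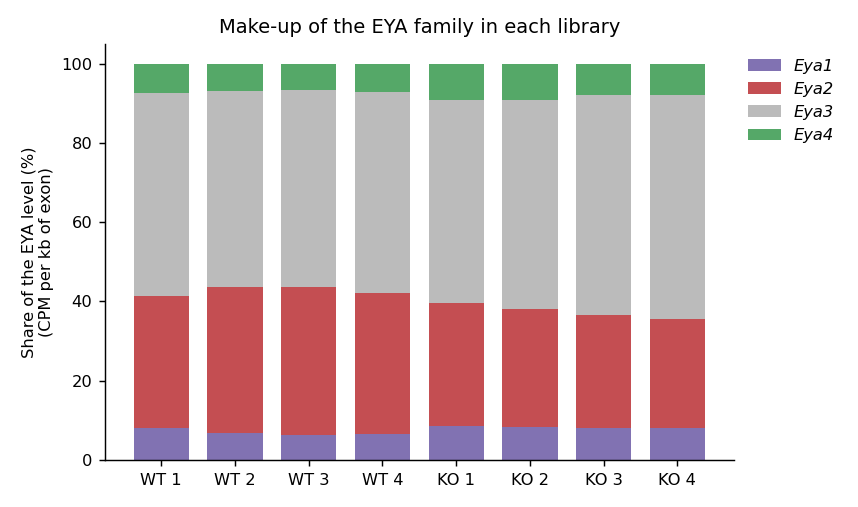
Share of each EYA gene in the summed EYA level (CPM per kb of exon, in percent) in each library. The Eya2 part is 33.4% to 37.4% in the WT libraries and 27.7% to 31.2% in the KO libraries.

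Among the SIX-family genes, none passed the test. Six4 (chromosome 12, 73099609 to 73113456), a factor of muscle and sensory ganglia, measured 32.3, 34.1, 33.2 and 30.9 CPM in the WT libraries, against 31.6, 30.4, 31.1 and 27.98 CPM among the KO libraries. The groups overlapped through WT replicate 4. Six4 had −0.11 as its log2 fold change (SE 0.06, adjusted p = 0.839), with a 95% interval from −0.23 to 0.02, which excludes a change as large as that estimated for Eya2. Six5 (chromosome 7, 19094594 to 19098549), known for lying next to the myotonic dystrophy kinase gene, measured 44.0, 48.8, 50.1 and 52.5 CPM in the WT libraries, against 54.7, 49.7, 54.0 and 54.3 CPM among the KO libraries. KO replicate 2 lay inside the WT range and the other 3 KO libraries above it. The log2 fold change of Six5 came to 0.13 (SE 0.06, adjusted p = 0.806).

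Six2 (chromosome 17, 85684277 to 85688274), best known from kidney progenitors and head mesenchyme, varied most between libraries. It measured 25.4, 16.9, 10.2 and 15.4 CPM in the WT libraries, against 28.2, 17.9, 16.1 and 31.5 CPM among the KO libraries. High and low libraries occurred in both groups, and the SD was 36.99% of the mean in WT and 32.3% in KO. The log2 fold change of 0.44 had an SE of 0.32 and an interval from −0.30 to 1.19 (adjusted p = 0.911). The estimate was 0.73 without WT replicate 1, 0.27 without WT replicate 3 and 0.27 without KO replicate 4. It is the largest estimate among the members and the least certain.

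Among the DACH genes, none passed either. Dach1 (chromosome 14, 97786853 to 98169765), a co-repressor gene known from neural progenitors as well as limb and eye, measured 92.1, 82.5, 81.5 and 86.5 CPM in the WT libraries, against 87.6, 80.1, 76.1 and 72.5 CPM among the KO libraries. KO replicate 1 lay inside the WT range and the other 3 KO libraries below it. The estimate on the log2 scale was −0.12 (SE 0.06, adjusted p = 0.839). Dach2 (chromosome X, 113297510 to 113836386), the other DACH gene and the lowest member, measured 10.5, 9.08, 7.37 and 7.61 CPM in the WT libraries, against 9.79, 9.05, 9.11 and 9.18 CPM among the KO libraries. Its KO libraries fell within the WT range, and its estimate on that scale was 0.09 (SE 0.11, adjusted p = 0.956).

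**Figure D4:**
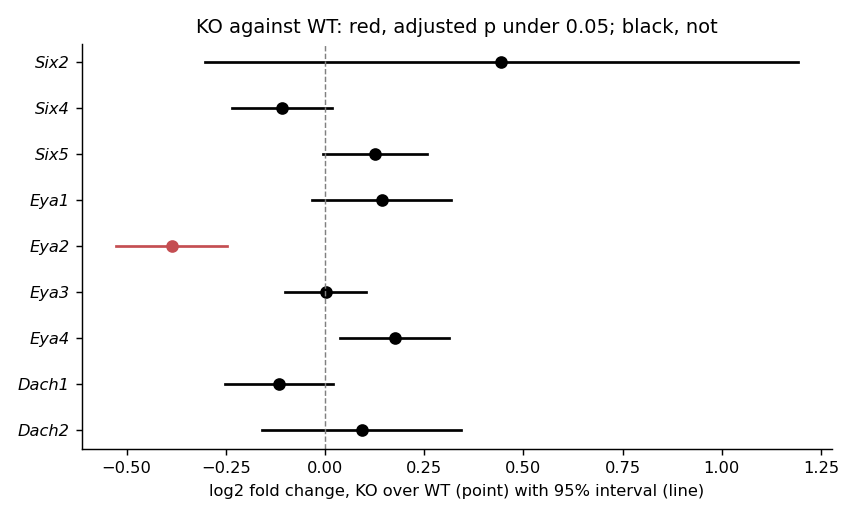
Log2 fold change, KO over WT, of each gene (point) with its 95% interval (line). The interval of Eya2 (red, adjusted p = 0.0303) lies wholly below 0, that of Eya4 lies above 0 without passing the adjusted test, and that of Six2 is the widest.

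Taking the 9 members as a list, 3 had a negative and 6 a positive log2 fold change, and the median was 0.09, beside −0.003 over all tested genes. The 95% intervals of 7 members include 0, that of Eya2 lies below 0 and that of Eya4 above it.

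Ranked by CPM per kb, the WT order was Eya3 (20.6), Six5 (16.2), Eya2 (14.7), Dach1 (11.7), Six2 (8.01), Six4 (3.01), Eya4 (2.87), Eya1 (2.83) and Dach2 (0.876). In that order the library ranges of Six5 and Eya2, of Dach1 and Six2, of Six4 and Eya4 and of Eya4 and Eya1 overlapped, so these neighbours cannot be ranked. In KO the means of Six5 and Eya2 were 17.7 and 11.2 CPM per kb and their ranges no longer overlapped, whereas Eya2 now overlapped Six2 (11.1), which overlapped Dach1 (10.8). Lengths are of all annotated exons of a gene, so a gene whose longest forms are not used here is understated on this scale.

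WT replicate 1 stood apart in several members. It held the highest WT level of Six2, Eya1, Eya4, Dach1 and Dach2 and the lowest of Eya2 and Six5. With 67782435 reads it was also 2.55 times as deep as the median of the rest (23088908 to 28500792 reads). Without it, 1 member was again called, Eya2, while 21 genes were called higher and 112 lower, against 9 and 39 with all libraries. The targeted gene Prdm12 ranged from 22.2 to 39.5 CPM over the WT libraries and from 0.962 to 1.55 CPM over the KO libraries, which fits the labels of all 8.

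The genes whose levels across the 8 libraries were most like those of Eya2 were Klhl13, Neurod1, Xkr7, Tlx2 and Tbc1d9. Likeness was Pearson's r of log2 CPM, which was 0.984, 0.981, 0.979, 0.971 and 0.968 in that order. They are the 5 highest of 11828 genes compared, they include the difference between groups, and they are given as a description. Neurod1, a proneural transcription factor, and Tlx2, a homeobox factor of sensory neurons, had log2 fold changes of −0.83 and −0.74 (adjusted p = 0.00987 for each). Xkr7, of the XK family of membrane proteins, and Tbc1d9, which encodes a TBC-domain protein, had −0.63 (adjusted p = 0.0351) and −0.51 (adjusted p = 0.00987). Klhl13, which encodes an adaptor of a ubiquitin ligase, ordered all 8 libraries as Eya2 did but spanned only 88.1 to 98.4 CPM, with a log2 fold change of −0.10 (adjusted p = 0.718). Among the other 8 members the value nearest to 1 was that of Six4 (r = 0.811), and Eya4 had the lowest (r = −0.642).

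Some markers of sensory neurons fell beside Eya2. Of 14 sensory neuron markers, 3 fell, 0 rose and 11 did not pass, where 0.243% of all tested genes were called lower, and the list's median log2 fold change was −0.43. At an unadjusted p under 0.05, 8 of the 14 were lower and 0 higher, where 3.32% of all tested genes were lower and 3.03% higher. Among the 3 called lower were Tlx2 and the homeobox gene Pou4f1, which stood at 93.9 ± 9.37 CPM in the WT group and 65.3 ± 4.69 CPM in the KO group (SD, n = 4; log2 fold change −0.52, adjusted p = 0.0188). The list's mean log2 CPM was 4.06, 4.70, 4.69 and 4.62 over the WT libraries, against 4.08, 4.16, 3.902 and 3.85 over the KO libraries. Its summed level ran from 430.3 to 621.5 CPM in WT and from 408.0 to 499.8 CPM in KO, with no marker at 0. Over the 8 libraries, which differ in depth, Pearson's r of Eya2 with the mean of this list was 0.888, and 0.7 within groups. Both r are descriptions, as all genes of a library share its depth and dissection. These values were not particular to the sensory list. Over the 8 libraries r was 0.886 with the list of reported target genes described below and −0.733 with skeletal muscle. Within groups it was −0.769 with surface epithelium, 0.686 with the reported targets and 0.638 with macrophages. All other lists were weaker in each case. WT replicate 1 had the lowest value of the sensory list in WT, within the range of the KO libraries, and also the lowest Eya2 level in WT, 40.1 CPM. The part of sensory neuron content in the Eya2 difference was not tested.

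SIX-family and EYA genes are also active in skeletal muscle. Of 13 muscle markers 0 were called, 9 were higher at an unadjusted p under 0.05, where 3.03% of all tested genes were, and the median log2 fold change was 0.31. Their summed level ran from 717.8 to 864.9 CPM in WT and from 808.5 to 1156 CPM in KO, with none at 0. With a score of muscle and mesenchyme genes as a covariate, the log2 fold change of Eya2 was −0.39 (SE 0.10, adjusted p = 0.619). Those of Eya4 and Eya1 were 0.29 (adjusted p = 0.955) and 0.27, that of Dach1 changed sign to 0.07, and none of the 9 was called. The score itself nearly separated the groups, with 5.88 to 6.07 in WT and 6.06 to 6.32 in KO. Score and group are thus hard to tell apart in this fit. The Eya2 estimate stayed at −0.39 while its SE rose from 0.06 to 0.10. Of 5 nephric mesoderm markers, a tissue where Six2 and Eya1 are active, 0 were called and none was at 0, and their summed level ran from 79.4 to 89.0 CPM in WT and from 73.9 to 108.7 CPM in KO. The part of these tissues in the values of Six2, Eya1 and Eya4 was not tested beyond that covariate.

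Dach1 was close to several other lists. Over the 8 libraries its r was 0.946 with the mean of the dorsal interneuron list and 0.927 with that of the neural tube progenitor list. It was −0.886 with skeletal muscle, −0.876 with motor neurons and −0.841 with sclerotome and mesenchyme. Within groups these were 0.922, 0.897, −0.834, −0.881 and −0.759. They were picked as its largest values over all lists after the values were seen. All are descriptions, as all genes of a library share its depth and dissection, and the libraries differ in depth. The 10 neural tube progenitor markers had a mean log2 CPM of 5.33, 4.97, 4.95 and 5.11 over the WT libraries, against 5.11, 4.88, 4.87 and 4.84 over the KO libraries. Ordered by that mean, the 8 libraries fall in the same order as by Dach1, from WT replicate 1 down to KO replicate 4, an agreement noticed after the values were seen. All 10 markers had negative log2 fold changes, with a median of −0.18, 0 passed the test, and Sox2, a progenitor factor, had the smallest p (log2 fold change −0.22, adjusted p = 0.632). The part of these cell types in the Dach1 values was not tested.

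**Figure D5:**
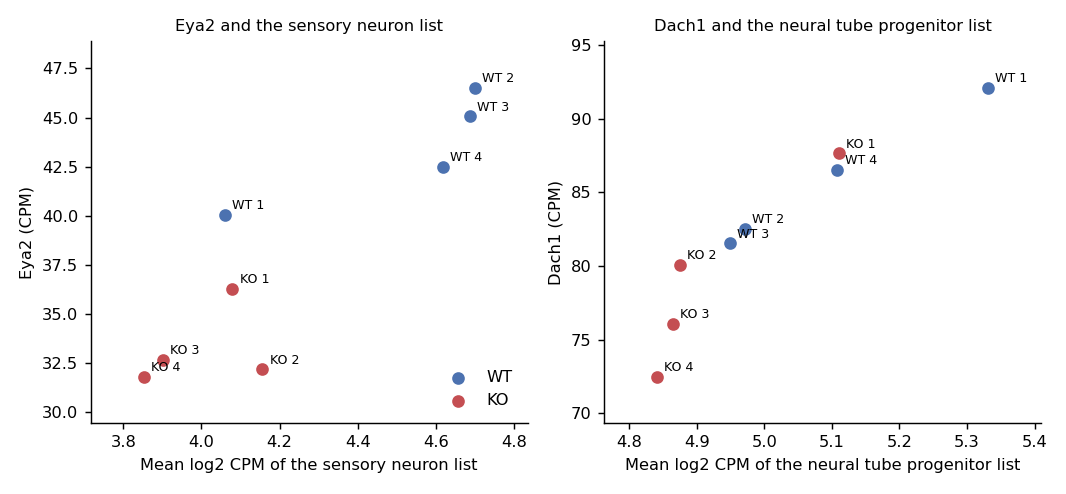
Left, Eya2 (CPM) against the mean log2 CPM of the 14 sensory neuron markers; right, Dach1 (CPM) against that of the 10 neural tube progenitor markers, each point 1 library (WT blue, KO red), with axes that do not start at 0. WT replicate 1 is the WT library lowest in both Eya2 and the sensory list, and Dach1 orders the libraries as the progenitor list does.

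The other lists of cell types gave few calls. Of 16 sclerotome and mesenchyme markers 0 were called, with a median log2 fold change of 0.13 and sums of 3123 to 4151 CPM in WT and 3873 to 4454 CPM in KO. Of 7 crest and glia markers, the zinc-finger factor gene Egr2 rose (1.08, adjusted p = 0.00673) and the crest factor gene Foxd3 fell (−0.57, adjusted p = 0.0303), where 0.056% of all tested genes were called higher and 0.243% lower. The median over that list was 0.16. Of 5 motor neuron markers matched, the homeobox gene Lhx3 rose (0.56, adjusted p = 0.0169) and 4 did not pass, among them the homeobox gene Isl2 (−0.42, adjusted p = 0.0916), with a list median of 0.12. Sympathetic neuron, dorsal interneuron, surface epithelium, endothelium, erythroid and macrophage markers had 0 called, with medians of 0.24, −0.15, 0, −0.04, −0.03 and 0.08. Their part in the members' values was not tested.

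Partners of the network showed no called change. Of 22 genes for PAX factors, SKI-family and Groucho co-repressors and other known partners of the 3 families, 0 were called, 1 was higher and 1 lower at an unadjusted p under 0.05, and the median log2 fold change was −0.01. The 2 with the smallest p were Tle1, a Groucho co-repressor (log2 fold change 0.11, adjusted p = 0.705), and Pax8, a paired-box factor (log2 fold change −0.53, adjusted p = 0.731). Sobp, whose product is named for binding SIX-family proteins, had a log2 fold change of −0.01 (SE 0.08).

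Of 12 genes reported as targets of SIX-family factors in other settings, 2 fell, 0 rose and 10 did not pass, where 0.243% of all tested genes were called lower, and the median log2 fold change was −0.07. Those that fell were the proneural factor Neurog1, with a log2 fold change of −0.48 (adjusted p = 0.0182; KO range 24.7 to 30.8 CPM, WT range 37.2 to 42.0 CPM), and Neurod1. Both are known from the sensory lineage, and Isl1 on this list is also on the sensory list, as Myog and Myf6 are on the muscle list. The muscle factor Myog showed 0.28 (adjusted p = 0.793) and the Six5 target Igfbp5 0.22 (adjusted p = 0.682).

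SIX-family proteins bind the sequence known as the MEF3 site, and its core TCAGGTT was searched on both strands in RefSeq promoter windows (GRCm38.p6, 250 bases before to 50 after a start). No window was at hand for Eya1 or Eya2, so their promoters were not searched. Windows were at hand for the other 7 members, 10 windows in all, and 1 held the core, where 4.07% of 32851 windows of the same length did. It was a Six4 window (chr12:73113196-73113495, minus strand), shown here around the match, which is in capitals and reads on the opposite strand to the gene. A match is a description of the letters and no evidence of binding.
Six4: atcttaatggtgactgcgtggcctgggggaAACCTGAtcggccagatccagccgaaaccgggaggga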

How the data were processed

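The authors deposited 1 file of whole-number read counts per gene for each of 8 libraries. Build mm10 and the tools STAR 2.3.0e and featureCounts 1.4.6-p1 are named per the submitters' processing notes, which also list DESeq2 1.8.2, FastQC 0.10.1 and SAMtools 0.1.18. Settings, annotation and strand use are not known from these sources. The 5 summary rows held 0 counts and were left out. Symbols, coordinates and exon lengths came from GENCODE M21 (GRCm38), in which 36602 of 38355 identifiers matched.

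Groups came from the sample titles. KO was compared with WT over all genes by the robust quasi-likelihood F test of edgeR 4.0.16 (R 4.3.3; filterByExpr, TMM, group alone, Benjamini-Hochberg over 16068 genes, threshold 0.05), and checked on simulated counts. SE was derived from the F statistic (estimate over its square root), and intervals use the fit's degrees of freedom. CPM use the library totals of the tested genes, scaled by TMM, and list means use log2 CPM with a prior count of 2. Over all genes and before scaling, the library totals were 23088908 to 67782435 reads. No 2 libraries of a group agreed within sampling noise. Coding sequences were aligned with MAFFT 7.526, and figures drawn with matplotlib 3.10.9.

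The members, the lists and the rule for named genes were chosen with earlier results of these data known. The rule took the 9 members, called genes and those of smallest p in each list, and the 5 genes most like Eya2. Not every gene it took is reported here, and Sobp, Myog, Igfbp5 and Isl2 were chosen after their values were seen. Further lists, for crest and glia, sympathetic, motor and dorsal interneurons, mesenchyme, epithelium, endothelium, erythroid cells and macrophages, served as background. The 18 alternatives comprised DESeq2 1.42.0, voom in limma 3.58.1, other scalings and filters, the replicate number as a block, 2 covariates, a thinned WT replicate 1 and leaving out each library.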

Additional observations from a re-analysis of the deposited data

Results flagged for a closer look

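In the KO group, the Six5 level of replicate 2 (49.7 CPM) lay apart from the other 3 libraries (54.0 to 54.7 CPM), with a gap of 0.866 of the group's range, above Dixon's 95% critical value for 4 samples. It was the single case among 18 groups examined, and chance alone gives about 1 in 20. The log2 fold change of Six5 without that library was 0.16.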

How the results depend on the processing

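Of 162 values of members under alternatives, 154 kept their call status, and the 8 others were all Eya2 losing its call. No called value changed sign. Among genes not called, Dach1 was positive with the muscle and mesenchyme score, and Eya3 lay near 0 with either sign. The number of members called was 0 with the replicate block and with that score, and between 0 and 1 when a library was left out. Genes called higher and lower numbered 22 and 81 with DESeq2, 23 and 102 with limma-voom, 2 and 14 under the replicate block, and 0 and 2 once the muscle and mesenchyme score was added, against 9 and 39 as reported. Leaving out 1 library gave 3 to 21 higher and 12 to 112 lower. With the replicate block, Eya2 was at −0.39 (adjusted p = 0.125). Same-numbered libraries share only a number: their deviations from the group means correlated at −0.151, 0.369, −0.288 and 0.048, and WT replicate 2 alone correlated best with its own number. Eya2 kept its call with other scalings and filters, DESeq2 (adjusted p = 6.51e-05), limma-voom (0.00701), the sex score and the thinned library. Dach2, with 188 to 709 reads per library, is the member most limited by depth.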
